A study of Mus musculus with 6 samples.

Results

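Arteries and veins of the embryo carry different surface proteins and transcription factors from early stages on, before the vessel wall matures. The 9 genes described here are markers of those fates in endothelium. They comprise 6 arterial markers (the gap junction genes Gja4 and Gja5, the ephrin ligand gene Efnb2, the guidance receptor gene Unc5b, the chemokine receptor gene Cxcr4 and the BMP9 and BMP10 receptor gene Acvrl1) and 3 venous markers (the nuclear receptor gene Nr2f2, the ephrin receptor gene Ephb4 and the apelin receptor gene Aplnr). They were taken by symbol from a table of 25239 genes, in which all 9 were present, and all 9 passed the filter on low counts that left 14002 genes for testing.

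The tissue was whole mouse yolk sac at embryonic day 9.5, when the primitive capillary network of this membrane remodels into larger arteries and veins fed by the vitelline vessels. Messenger RNA was sequenced from 3 yolk sac samples labelled DKO and 3 labelled wild type (WT). The DKO genotype combines a germline Cdx1 null, a loxP-flanked Cdx2 allele and a tamoxifen-activated Cre (Actin::CreERT) on a mixed background, with tamoxifen given at embryonic day 5.5. The WT embryos were CD1 and untreated, so genotype, strain and tamoxifen differ together and cannot be told apart. An actin promoter is active in most cell types, so the deletion was not directed at endothelium. Neither the number of yolk sacs per sample nor the litter is given. The p-values therefore cover the spread among these 6 libraries, which may be technical.

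Libraries held 24242663 to 56732836 counts in the group labelled DKO and 20040601 to 26855337 counts in WT. The targeted gene Cdx2 stood at 23.4, 24.0 and 25.1 CPM (the count of a gene scaled to the total of its library) in DKO-labelled libraries 1, 2 and 3 and at 16.7, 18.9 and 20.5 CPM in WT libraries 1, 2 and 3, which is not the direction of its label. Cdx1 had 10, 14 and 14 counts in DKO-labelled libraries 1, 2 and 3 against 0, 1 and 8 in WT. Cdx4 had 0 counts in each library labelled DKO and 0, 1 and 1 counts in WT. Counts cover whole genes and do not show deleted exons. Esr1, the oestrogen receptor gene, whose ligand-binding part is what makes CreERT respond to tamoxifen, stood at 2.64, 1.97 and 1.97 CPM in DKO-labelled libraries 1, 2 and 3 and at 0.0745, 0.195 and 0.150 CPM in WT (log2 fold change 3.98, adjusted p 0.0607 by edgeR and 6.19e-08 by DESeq2). The groups did not overlap, and whether these reads came from the transgene was not tested. Every direction below rests on the labels. The defining markers of yolk sac endoderm (Afp, at 2261 CPM or more), primitive red cells (Hbb-bh1, at 602 CPM or more) and endothelium (Pecam1, at 30.7 CPM or more) were present in every library. Libraries 1 and 3 labelled DKO stood apart in opposite ways: Afp was 2261 CPM in library 1 and 30418 CPM in library 3, against 6803 to 9886 CPM in WT, and library 3 had the lowest Hbb-bh1. Leaving out library 1 raised the number of genes called by edgeR to 634, against 5 with all libraries. Of the 634, 433 were higher and 201 lower, among 14335 genes tested in that setting.

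The markers work in pairs and layers. Gja5 (connexin 40) and Gja4 (connexin 37) form channels that couple arterial endothelial cells. Efnb2 on arterial cells binds Ephb4 on venous cells, and contact through this ligand and receptor keeps the vessel types apart. Nr2f2 (COUP-TFII) holds venous identity by restraining Notch signalling, Acvrl1 (ALK1) reads circulating BMP9 and BMP10 under flow, Unc5b is a netrin receptor, Cxcr4 is the receptor of Cxcl12, and Aplnr binds apelin.

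The arterial connexin genes and Efnb2 lay lower in the libraries labelled DKO than in WT, while the other arterial genes and the 3 venous genes stood at similar levels in both groups or varied most among the libraries labelled DKO. By edgeR's quasi-likelihood test with Benjamini-Hochberg adjustment over 14002 genes none of the 9 genes passed a threshold of 0.05, which 0.0357% of all genes passed. At an unadjusted p under 0.05 there were 3 of the 9, all lower (Gja4, Gja5 and Efnb2), against 3.54% of all genes in that direction. DESeq2 called the same 3 genes lower, against 0.767% of all genes it tested, as did limma-voom with library quality weights, against 9.04%. The libraries labelled DKO lay wholly below WT in 4 of the 9 genes, the same 3 and Nr2f2, against 7.59% of all genes, and in none of the 9 wholly above, against 7.96%. The median log2 fold change was -0.65 over the 6 arterial genes and 0.039 over the 3 venous genes, against 0.013 over all genes tested.

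**Figure D1:**
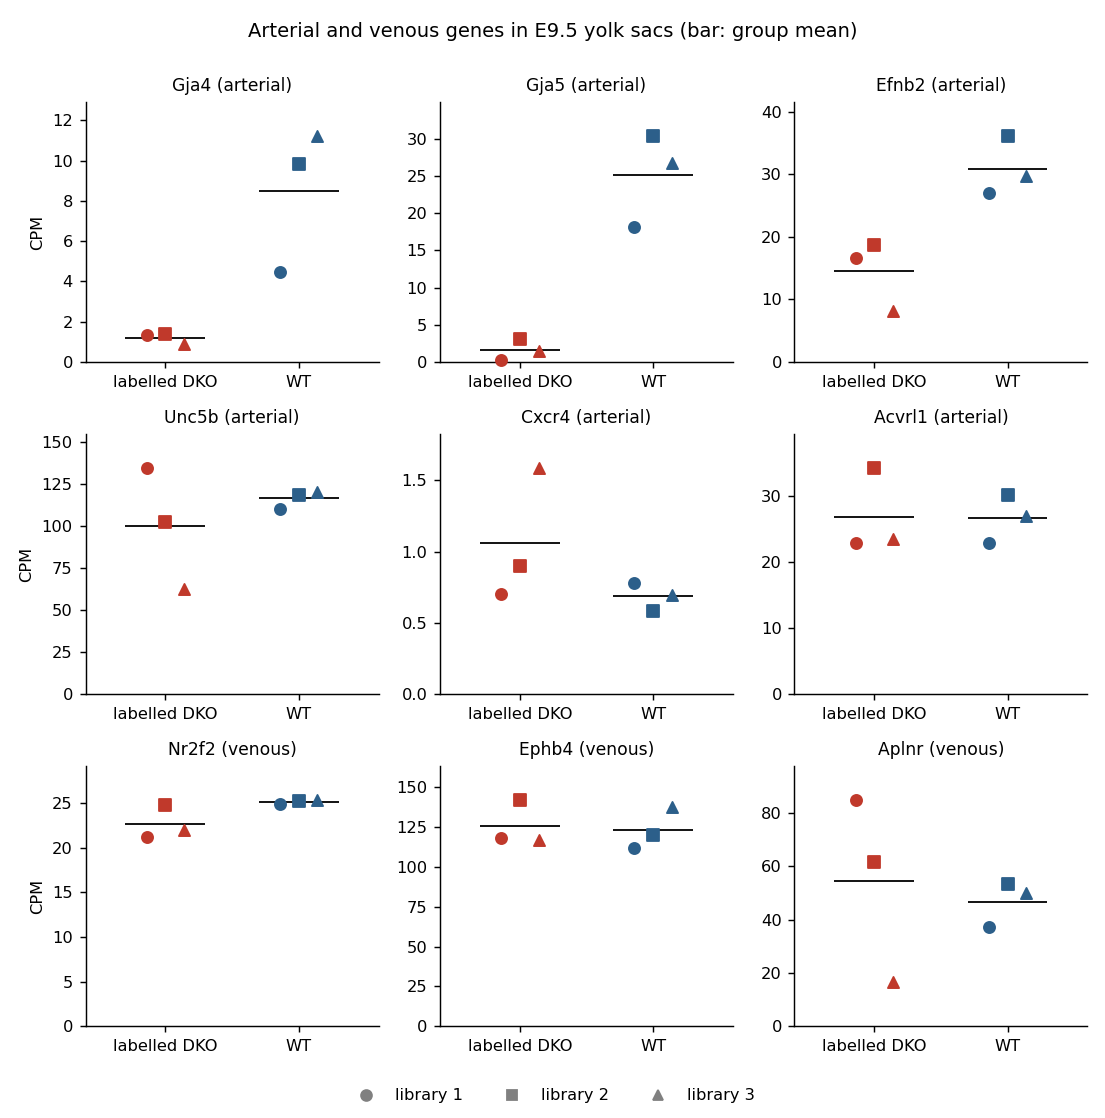
Level of each of the 9 genes in CPM (vertical axes, starting at 0) in the 3 libraries labelled DKO (red) and the 3 WT libraries (blue), with a bar at the group mean. Gja4, Gja5 and Efnb2 separate the groups, with the highest library labelled DKO at 1.41, 3.15 and 18.6 CPM and the lowest WT library at 4.47, 18.2 and 27.0 CPM.

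Gja5 lies on chromosome 3 from 97032402 to 97053634 (GRCm38). It stood at 0.206, 3.15 and 1.50 CPM in DKO-labelled libraries 1, 2 and 3 and at 18.2, 30.4 and 26.8 CPM in WT libraries 1, 2 and 3. The groups did not overlap, and library 1 labelled DKO held almost no Gja5. The means were 1.62 ± 1.48 CPM in the libraries labelled DKO and 25.1 ± 6.26 CPM in WT (SD, n = 3 each). The log2 fold change was -3.90 (SE 0.76), which is 14.9-fold lower, with an adjusted p of 0.247 by edgeR and 2.87e-06 by DESeq2. Of the 14002 genes tested, 7 including Gja5 had a fold change this low.

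The counts behind these levels of Gja5 were 5, 123 and 85 in DKO-labelled libraries 1, 2 and 3 and 489, 624 and 537 in WT. The exact Poisson interval of the 5 counts at 95% runs from 0.067 to 0.481 CPM, below that of library 3 labelled DKO, from 1.20 to 1.85 CPM, and that of library 2, from 2.62 to 3.76 CPM. The libraries labelled DKO therefore differed from each other in Gja5 beyond counting error, by 15.3-fold between the highest and the lowest, against 1.67-fold among WT libraries. Without library 1 labelled DKO the log2 fold change was -3.43 (SE 0.40) and passed the threshold of edgeR, with an adjusted p of 0.028. In that setting 2 of the 9 genes, Gja5 and Gja4, were called lower, against 1.4% of all genes.

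Gja4 lies on chromosome 4 from 127311420 to 127314039. It stood at 1.32, 1.41 and 0.881 CPM in DKO-labelled libraries 1, 2 and 3 and at 4.47, 9.84 and 11.2 CPM in WT. The groups did not overlap, and here the WT libraries spread more, with WT library 1 well under the other WT libraries. The log2 fold change was -2.82 (SE 0.41), which is 7.04-fold lower, with an adjusted p of 0.135 by edgeR and 2.38e-08 by DESeq2. Without library 1 labelled DKO the adjusted p by edgeR was 0.041, at a log2 fold change of -2.88. As a ratio of the 2 connexin genes, Gja5 had 0.156, 2.24 and 1.70 counts for each count of Gja4 in DKO-labelled libraries 1, 2 and 3 and 4.08, 3.09 and 2.39 in WT. These ratios did not overlap, but library 2 labelled DKO lay near WT library 3. The ratio of library 1 labelled DKO rests on 5 counts of Gja5, and the difference was not tested.

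Efnb2 lies on chromosome 8 from 8617235 to 8661242. It stood at 16.6, 18.6 and 8.21 CPM in DKO-labelled libraries 1, 2 and 3 and at 27.0, 36.1 and 29.6 CPM in WT. The groups did not overlap, and library 3 labelled DKO was the lowest. The log2 fold change was -1.09 (SE 0.30), which is 2.13-fold lower, with an adjusted p of 0.385 by edgeR and 0.0394 by DESeq2. A fold change this low was found in 163 of the 14002 genes, or 1.16%.

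The promoters of these 3 genes are shown because they are the members whose libraries separated the groups by the largest folds. Each window runs from 250 bases before to 50 bases after the start of the gene in RefSeq (GRCm38.p6), 5′ to 3′ on the strand of the gene, with capitals at matches to any of 4 short motifs on either strand: TGGGAA (the core bound by RBPJ, the DNA-binding partner of Notch), ACAAT (the SOX core), GGAA (the ETS core, which TGGGAA also contains) and TTTAT (the core of caudal homeobox proteins).
Gja5, chr3:97032152-97032451, plus strand: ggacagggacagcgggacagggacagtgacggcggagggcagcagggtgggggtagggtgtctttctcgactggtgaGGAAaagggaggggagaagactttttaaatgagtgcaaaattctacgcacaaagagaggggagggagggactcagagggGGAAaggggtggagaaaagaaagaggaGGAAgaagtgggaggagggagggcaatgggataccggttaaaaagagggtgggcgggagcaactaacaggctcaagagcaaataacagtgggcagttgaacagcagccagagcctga
Gja4, chr4:127313990-127314289, minus strand: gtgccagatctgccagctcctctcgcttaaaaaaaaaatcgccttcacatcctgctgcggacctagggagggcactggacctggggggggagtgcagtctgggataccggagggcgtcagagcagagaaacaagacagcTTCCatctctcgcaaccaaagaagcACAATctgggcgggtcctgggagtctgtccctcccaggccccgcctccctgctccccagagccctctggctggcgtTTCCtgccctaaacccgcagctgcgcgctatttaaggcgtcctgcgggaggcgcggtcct
Efnb2, chr8:8661193-8661492, minus strand: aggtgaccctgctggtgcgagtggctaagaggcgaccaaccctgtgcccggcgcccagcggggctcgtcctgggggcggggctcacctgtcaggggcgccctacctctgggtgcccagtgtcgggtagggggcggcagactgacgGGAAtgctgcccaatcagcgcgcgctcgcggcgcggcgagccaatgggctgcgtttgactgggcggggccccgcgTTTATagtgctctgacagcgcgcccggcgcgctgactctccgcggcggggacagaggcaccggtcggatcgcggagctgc
The Gja5 window held 3 matches to GGAA and none to the other motifs. The Gja4 window held 2 matches to GGAA and 1 to ACAAT. The Efnb2 window held 1 match to GGAA and 1 to TTTAT, the TTTAT match starting 30 bases before the gene start. Among 32817 promoter windows of the same length, 96.0% held GGAA, 40.0% TTTAT, 31.0% ACAAT and 25.6% TGGGAA. Of the 9 genes, 7 had a window in the table (not Acvrl1 or Aplnr), and of these 7 had GGAA, 3 TTTAT (Efnb2, Cxcr4 and Unc5b), 2 ACAAT (Gja4 and Unc5b) and 0 TGGGAA. A match to such short letters is a description and no binding site.

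**Figure D2:**
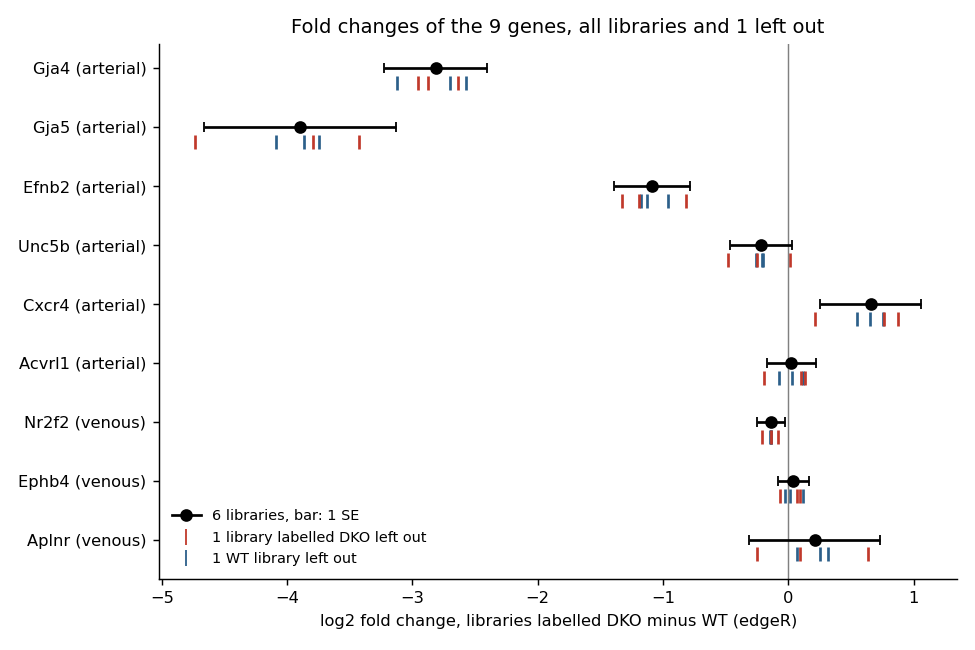
Log2 fold change of each gene (horizontal axis, libraries labelled DKO minus WT, edgeR), with all 6 libraries (black points, bars 1 SE) and with 1 library left out (ticks). Gja5 ran from -4.73 to -3.43, Gja4 from -3.13 to -2.57 and Efnb2 from -1.32 to -0.81 as single libraries were left out, while Unc5b, Acvrl1, Ephb4 and Aplnr fell on both sides of 0.

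The remaining arterial genes overlapped between the groups. Unc5b (chromosome 10 from 60762594 to 60831581) stood at 135, 103 and 62.5 CPM in DKO-labelled libraries 1, 2 and 3 and at 110, 119 and 120 CPM in WT. The WT libraries were close together, and the libraries labelled DKO lay on both sides of them, with library 3 the lowest. Its log2 fold change was -0.22 (SE 0.25, adjusted p 0.774 by edgeR) and 0.015 without library 3 labelled DKO. Acvrl1 (chromosome 15 from 101128522 to 101145336) stood at 22.9, 34.2 and 23.5 CPM in the libraries labelled DKO and at 22.8, 30.1 and 27.0 CPM in WT, and differed by 0.025 on the log2 scale (SE 0.20, adjusted p 0.967). Its sign was negative without library 2 labelled DKO (-0.19) or WT library 1 (-0.077).

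Cxcr4 (chromosome 1 from 128588199 to 128592299) was, per kilobase of exon, the scarcest of the 9 genes in WT. It stood at 0.701, 0.897 and 1.59 CPM in DKO-labelled libraries 1, 2 and 3 and at 0.782, 0.584 and 0.699 CPM in WT, from 12 to 90 counts per library. Library 3 labelled DKO was the highest, with an exact Poisson interval of 1.28 to 1.95 CPM that lay above those of the WT libraries, whose highest upper limit was 1.20 CPM. The log2 fold change was 0.66 (SE 0.40, adjusted p 0.643 by edgeR), and 0.21 without library 3 labelled DKO. Cxcr4 is also made by blood cells. All 5 tested macrophage markers had a positive fold change (median 1.08), none past the threshold and 1 (Csf1r) at an unadjusted p under 0.05, against 777 higher of all 14002 genes. The 7 listed markers summed to 69.9 to 155 CPM in the libraries labelled DKO and to 67.1 to 87.2 CPM in WT, and Csf1r stood at 2.56, 10.5 and 65.3 CPM in DKO-labelled libraries 1, 2 and 3. The part of these markers in the level of Cxcr4 was not tested.

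Of the venous genes, Nr2f2 (chromosome 7 from 70351946 to 70366746) varied least. It stood at 21.2, 24.8 and 22.0 CPM in DKO-labelled libraries 1, 2 and 3 and at 24.9, 25.2 and 25.3 CPM in WT. All libraries labelled DKO lay below all WT libraries, library 2 by less than 0.1 CPM, and the highest and lowest WT libraries differed by 1.02-fold. The log2 fold change was -0.14 (SE 0.11, adjusted p 0.705 by edgeR), a size that 26.2% of tested genes had or went below.

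Ephb4 (chromosome 5 from 137350109 to 137374522), the receptor for Efnb2, stood at 118, 142 and 117 CPM in DKO-labelled libraries 1, 2 and 3 and at 112, 120 and 138 CPM in WT. The groups overlapped throughout. Its log2 fold change was 0.039 (SE 0.12, adjusted p 0.916 by edgeR), and -0.025 without WT library 1 and -0.064 without library 2 labelled DKO. Set against its receptor in the same library, Efnb2 had 0.141, 0.131 and 0.0703 counts for each count of Ephb4 in DKO-labelled libraries 1, 2 and 3 and 0.240, 0.301 and 0.215 in WT, and these ratios did not overlap.

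Aplnr (chromosome 2 from 85136360 to 85139923) stood at 84.7, 61.6 and 16.5 CPM in DKO-labelled libraries 1, 2 and 3 and at 37.2, 53.2 and 49.8 CPM in WT. Libraries 1 and 2 labelled DKO lay above every WT library and library 3 below every one, a spread of 5.14-fold in the group labelled DKO against 1.43-fold in WT. The log2 fold change was 0.21 (SE 0.52, adjusted p 0.892 by edgeR). It was 0.64 without library 3 labelled DKO and -0.25 without library 1. Its ligand genes also varied: Apln stood at 71.6, 13.7 and 43.9 CPM in DKO-labelled libraries 1, 2 and 3 and at 15.0, 27.8 and 25.9 CPM in WT (log2 fold change 0.91, SE 0.56, adjusted p 0.645), and 0.37 without library 1 labelled DKO. Apela stood at -0.16 (SE 0.74) and was at 1.28 CPM or less in every library.

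**Figure D3:**
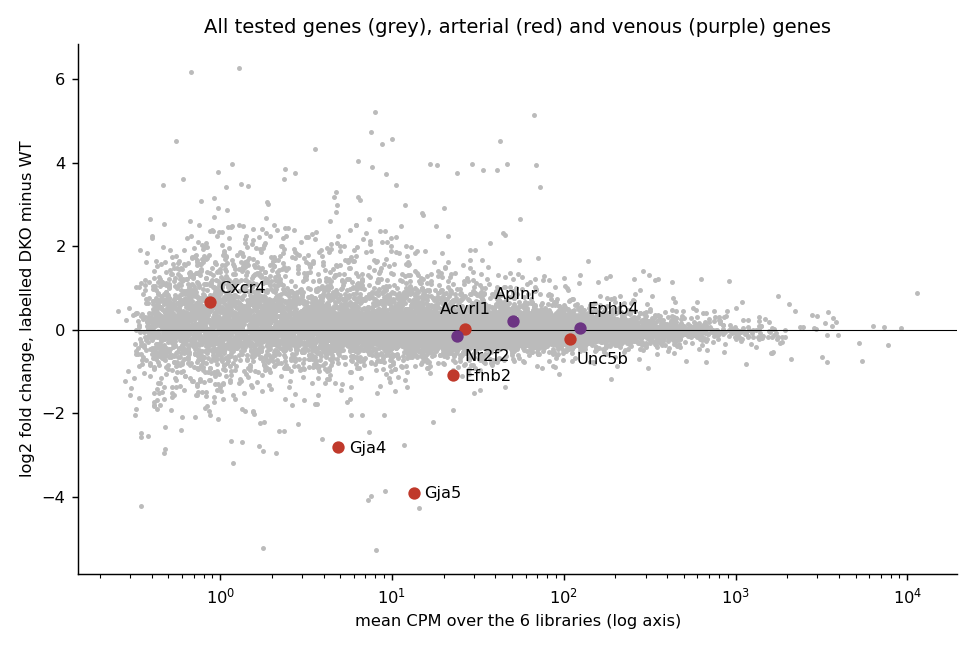
Log2 fold change (vertical axis, libraries labelled DKO minus WT) against mean CPM over the 6 libraries (log axis) for the 14002 tested genes in grey, with the arterial genes in red and the venous genes in purple. Gja4 (-2.82) and Gja5 (-3.90) lie at the lower edge of the cloud, Efnb2 (-1.09) below most genes of its level, and the other 6 genes between -0.22 and 0.66.

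Levels of different genes were compared per kilobase of exon. In WT the order was Ephb4 (26.6 ± 2.81 CPM per kb), Unc5b (18.6 ± 0.866), Aplnr (12.6 ± 2.28), Acvrl1 (6.25 ± 0.861), Gja4 (5.05 ± 2.12), Efnb2 (4.51 ± 0.685), Gja5 (4.37 ± 1.09), Nr2f2 (2.91 ± 0.025) and Cxcr4 (0.381 ± 0.055; SD, n = 3). The WT libraries of Acvrl1 overlapped those of Gja4, and those of Gja4, Efnb2 and Gja5 overlapped each other. Gja4 also overlapped Nr2f2, since WT library 1 had 2.65 CPM per kb of Gja4 and 2.88 of Nr2f2. In the libraries labelled DKO, Ephb4 (27.1 ± 3.06 CPM per kb), Unc5b (16.0 ± 5.78), Aplnr (14.7 ± 9.38) and Acvrl1 (6.30 ± 1.50) again led, followed by Nr2f2 (2.63 ± 0.220), Efnb2 (2.11 ± 0.806), Gja4 (0.714 ± 0.168), Cxcr4 (0.587 ± 0.257) and Gja5 (0.282 ± 0.257; SD, n = 3). Per kilobase, Gja5 and Gja4 thus stood above Nr2f2 in the WT means and below it in the means of the libraries labelled DKO. Libraries of Unc5b, Aplnr and Acvrl1 overlapped in sequence in that group, as did Nr2f2 with Efnb2 and Gja4 with Cxcr4 and Gja5.

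Since the tissue was whole yolk sac, fewer endothelial cells and less RNA per cell cannot be told apart from CPM alone, and the 9 genes were also set against 20 pan-endothelial genes of the same library. These 20 genes summed to 1002, 1049 and 630 CPM in DKO-labelled libraries 1, 2 and 3 and to 867, 966 and 946 CPM in WT (log2 difference -0.086, exact two-sided permutation p = 1.0, smallest possible 0.1). The groups overlapped, with library 3 labelled DKO the lowest, and without it the difference was 0.15. The 20 genes include Tal1, which blood cells also make. Tal1 stood at 102, 59.6 and 11.7 CPM in DKO-labelled libraries 1, 2 and 3 and at 89.9, 72.2 and 93.8 CPM in WT. The part of blood cells in the sum was not tested, nor was the part of endothelium in the RNA of each of the 9 genes. Ratios to the sum therefore need not be levels within endothelium. Of 19 tested pan-endothelial genes 10 were positive and 9 negative (median 0.029, against 0.013 over all genes), none past the threshold of edgeR and none called by DESeq2. At an unadjusted p under 0.05 there were 2 higher (Pecam1 and Cldn5), against 777 of all 14002 genes. The adhesion gene Pecam1 stood at 0.52 (SE 0.16, adjusted p 0.434) and VE-cadherin, Cdh5, at 0.12 (SE 0.20, adjusted p 0.841). Pecam1 was at 42.4, 52.4 and 55.8 CPM in DKO-labelled libraries 1, 2 and 3 and at 30.7, 40.0 and 35.7 CPM in WT. The libraries labelled DKO lay wholly above WT in Pecam1, as in 7.96% of all genes. Cldn5, a tight junction gene, stood at 0.63 (SE 0.25, adjusted p 0.533), and without library 1 labelled DKO it passed at 0.86 (adjusted p 0.0313). In that setting 433 of all 14335 genes tested were called higher.

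For each 1000 pan-endothelial counts, Gja4 had 1.32, 1.34 and 1.40 counts in DKO-labelled libraries 1, 2 and 3 and 5.16, 10.2 and 11.9 counts in WT. On this scale the libraries labelled DKO were nearly equal, but the values rest on 32, 55 and 50 counts of Gja4. The exact Poisson intervals of these counts were 0.903 to 1.86, 1.06 to 1.83 and 0.654 to 1.16 CPM. The ratios lay closer together than counting error alone would place them, so their nearness does not show a constant ratio. Gja5 had 0.206, 3.01 and 2.38 counts for each 1000 in the libraries labelled DKO and 21.0, 31.5 and 28.3 in WT, and Efnb2 had 16.6, 17.8 and 13.0 in the libraries labelled DKO and 31.1, 37.4 and 31.3 in WT. In these 3 genes the groups did not overlap, and each exact two-sided permutation p was 0.1, the smallest that 3 against 3 libraries can give. The other 6 of the 9 genes overlapped, with exact p from 0.4 to 1.0. Relative to Pecam1 and Cdh5 alone, Unc5b (-0.51) and Nr2f2 (-0.37) also had an exact p of 0.1. That change of denominator moves the log2 difference of all 9 genes by the same amount.

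When edgeR was run with libraries scaled to the summed pan-endothelial counts, the median fold change of all genes moved to 0.12, against 0.013 with TMM scaling. Gja4 then stood at -2.74, past the threshold (adjusted p 0.046), 1 of the 9 genes against 0.0357% of all genes called lower in that setting. Gja5 stood at -3.83 (adjusted p 0.395) and Efnb2 at -1.07 (adjusted p 0.332). The 3 venous genes stood at -0.033 (Nr2f2), 0.14 (Ephb4) and 0.17 (Aplnr).

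**Figure D4:**
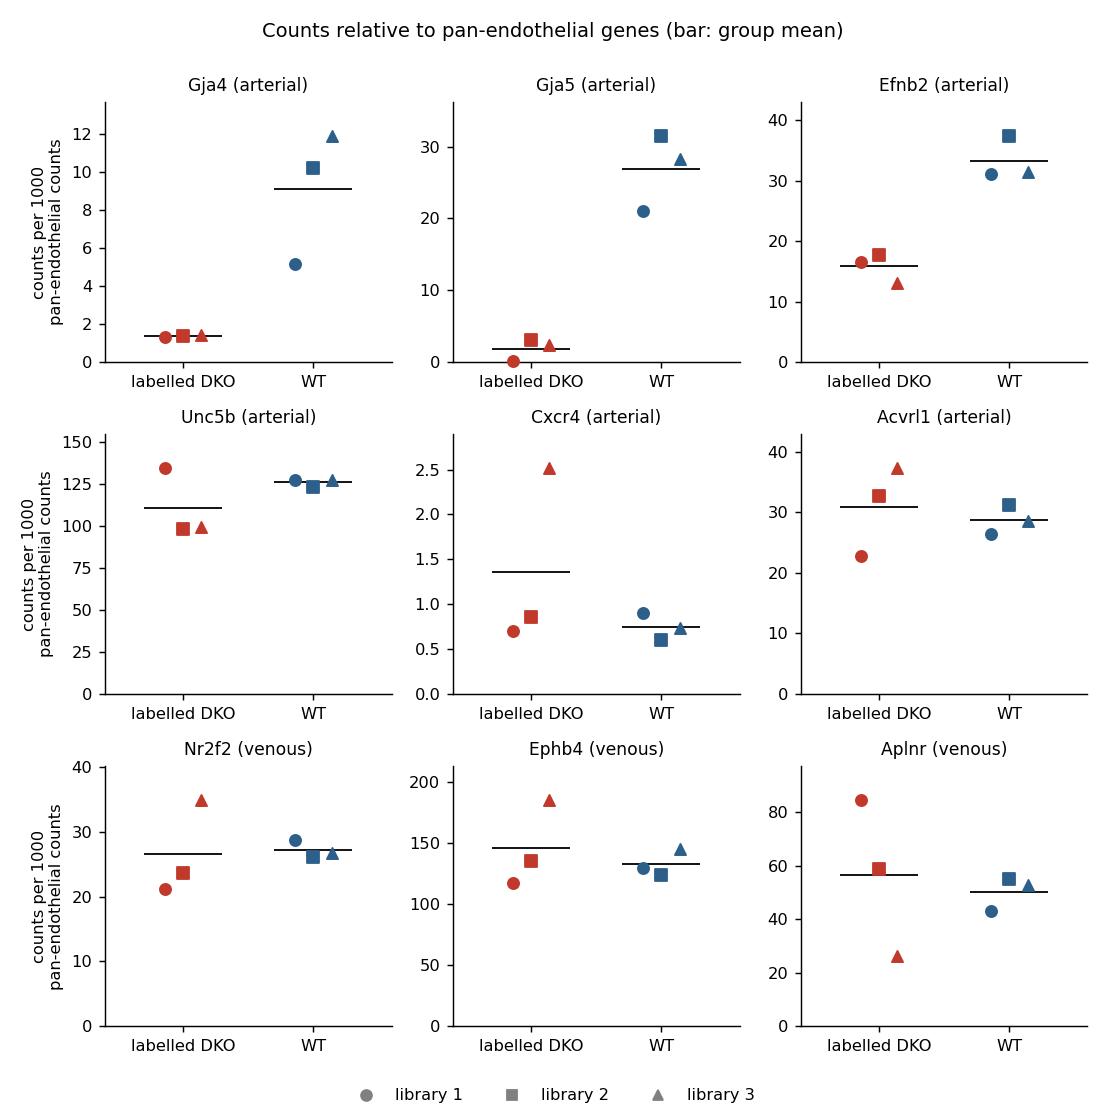
Counts of each gene for each 1000 counts of 20 pan-endothelial genes in the same library (vertical axes, starting at 0), for 3 libraries labelled DKO (red) and 3 WT libraries (blue), with a bar at the group mean. Gja4 (1.32 to 1.40 against 5.16 to 11.9), Gja5 and Efnb2 keep the groups apart, and the other genes overlap.

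Atrial heart muscle and the umbilical vessels of the allantois also carry Gja5. The 7 cardiac genes summed to 2.71 to 14.3 CPM in the libraries labelled DKO and to 3.09 to 9.08 CPM in WT, with Nkx2-5 at 0.687 CPM or less in every library, and 3 of 6 tested genes were positive. Mybpc3, a cardiac myosin-binding protein gene outside that list, was among the genes nearest to Gja5 in pattern (below). It stood at 1.11, 0.461 and 1.11 CPM in DKO-labelled libraries 1, 2 and 3 and at 7.97, 13.8 and 21.0 CPM in WT (log2 fold change -3.98, adjusted p 0.0918 by edgeR). As Mybpc3 was picked for its likeness to Gja5 in these libraries, a low fold change follows from the choice. The 5 genes of allantois and embryo summed to 0.811 to 1.73 CPM in the libraries labelled DKO and to 0.707 to 5.80 CPM in WT, and the allantois gene Tbx4 reached 4.72 CPM in WT library 2 and 0.150 CPM or less in the other 5 libraries. In WT library 3, where the 5 genes summed to 5.79 CPM, the somite gene Meox1 stood at 2.79 CPM and the neural and eye gene Pax6 at 1.25 CPM. The part of heart, allantois or embryo in the level of Gja5 was not tested. Mural genes, which mark the muscle coat of vessels, had a median fold change of -0.0080 over 9 tested genes, and Acta2 stood at -0.17 (SE 0.17). At an unadjusted p under 0.05 there was 1 mural gene higher (Des), against 777 of all 14002 genes.

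The rest of the arterial programme was followed in 20 other arterial genes, of which 19 were tested. None passed the threshold of edgeR, 0 were called by DESeq2 and 1 had an unadjusted p under 0.05, lower, against 3.54% of all genes in that direction. There were 8 positive fold changes and 11 negative (median -0.18, against 0.013 over all genes). The gene at an unadjusted p under 0.05 was Mecom, a transcription factor gene of arterial endothelium and blood stem cells. It stood at 1.53, 2.31 and 0.582 CPM in DKO-labelled libraries 1, 2 and 3 and at 3.39, 4.29 and 6.39 CPM in WT (log2 fold change -1.67, SE 0.52, adjusted p 0.438 by edgeR and 0.0729 by DESeq2). Hey2, a Notch target that favours arterial fate, stood at 1.20, 0.282 and 0.247 CPM in the libraries labelled DKO and at 1.08, 2.0 and 1.20 CPM in WT, which is -1.38 on the log2 scale (SE 0.67, adjusted p 0.597). Without library 1 labelled DKO it stood at -2.39 and passed (adjusted p 0.0453), where 201 of 14335 genes were called lower. Tmem100, a gene switched on by ALK1 signalling, stood at -0.89 (SE 0.40) and Epas1, which encodes HIF-2 alpha, at -0.47 (SE 0.19), and neither passed. Nrp1, a VEGF co-receptor, stood at -0.18 (SE 0.35), and at -0.50 without library 1 labelled DKO. Igfbp3, an IGF-binding protein gene, stood at 22.5, 91.0 and 202 CPM in the libraries labelled DKO and at 44.1, 51.5 and 44.4 CPM in WT (log2 fold change 1.20, SE 0.69).

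Among 9 other venous genes 0 had an unadjusted p under 0.05, 0 were called by either tool, 3 were positive and 6 negative (median -0.095). Nrp2, a semaphorin and VEGF-C co-receptor, stood at -0.36 (SE 0.27), Flt4, the VEGF-C receptor, at 0.28 (SE 0.23), Vwf at -0.42 (SE 0.37), Bmp2 at -0.45 (SE 0.47) and the chromatin remodeller gene Smarca4 at -0.095 (SE 0.12). Vwf stood at -0.14 and Bmp2 at -0.95 without library 1 labelled DKO.

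Genes that respond to blood flow had 7 tested members, with 4 positive and 3 negative (median 0.0043). None passed edgeR's threshold, and at an unadjusted p under 0.05 there was 1 lower and 1 higher, against 496 lower and 777 higher of all 14002 genes. Klf2, the main flow-induced transcription factor of endothelium, stood at 5.44, 5.84 and 5.87 CPM in DKO-labelled libraries 1, 2 and 3 and at 8.23, 11.9 and 10.2 CPM in WT. The groups did not overlap, and the log2 fold change was -0.81 (SE 0.19, adjusted p 0.312 by edgeR and 0.0133 by DESeq2). Slco2a1, a prostaglandin transporter gene, stood at 10.8, 35.4 and 89.3 CPM in the libraries labelled DKO and at 15.8, 10.7 and 9.93 CPM in WT (log2 fold change 1.93, SE 0.72, adjusted p 0.518). Without library 1 labelled DKO it passed at 2.39 (adjusted p 0.0455), where 433 of 14335 genes were called higher. Edn1, which encodes endothelin, stood at 0.79 (SE 0.46) and the mechanosensitive channel gene Piezo1 at -0.21 (SE 0.15).

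Of 18 other connexin genes 7 were tested, with 4 positive and 3 negative (median 0.16), and 0 had an unadjusted p under 0.05. Gja1, connexin 43, which is widely expressed, stood at 188, 207 and 158 CPM in DKO-labelled libraries 1, 2 and 3 and at 191, 205 and 186 CPM in WT, or -0.065 on the log2 scale (SE 0.11, adjusted p 0.849). Gjc1, connexin 45, which is made in early vessels and heart, stood at -0.41 (SE 0.25). Gjb2 stood at 0.38 (SE 0.40). Gjb5 rested on library 1 labelled DKO, with 18.8, 1.92 and 0.776 CPM in DKO-labelled libraries 1, 2 and 3 and 2.57, 4.63 and 1.95 CPM in WT. Its fold change was 1.20 (SE 1.11, adjusted p 0.733 by edgeR), and -1.17 without that library. Gjb5 is known in trophoblast of the placenta. All 6 tested of 10 trophoblast markers were positive (median 1.63), 2 of them at an unadjusted p under 0.05, against 777 higher of all 14002 genes. The sum of the 10 markers was 53.3 to 376 CPM in the libraries labelled DKO and 30.5 to 63.9 CPM in WT. Rhox6 and Rhox9 were called higher by DESeq2 (adjusted p 0.0071 and 0.0228). The giant cell genes Prl2c2 and Prl3d1 were highest in library 3 labelled DKO, at 229 and 54.2 CPM. Ascl2 stood at 11.2 CPM in library 1 labelled DKO, the library with the highest Gjb5, and at 0.974 CPM or less in the other 5 libraries, and Tpbpa at 0.124 CPM or less in all 6. The part of trophoblast in Gjb5 was not tested.

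**Figure D5:**
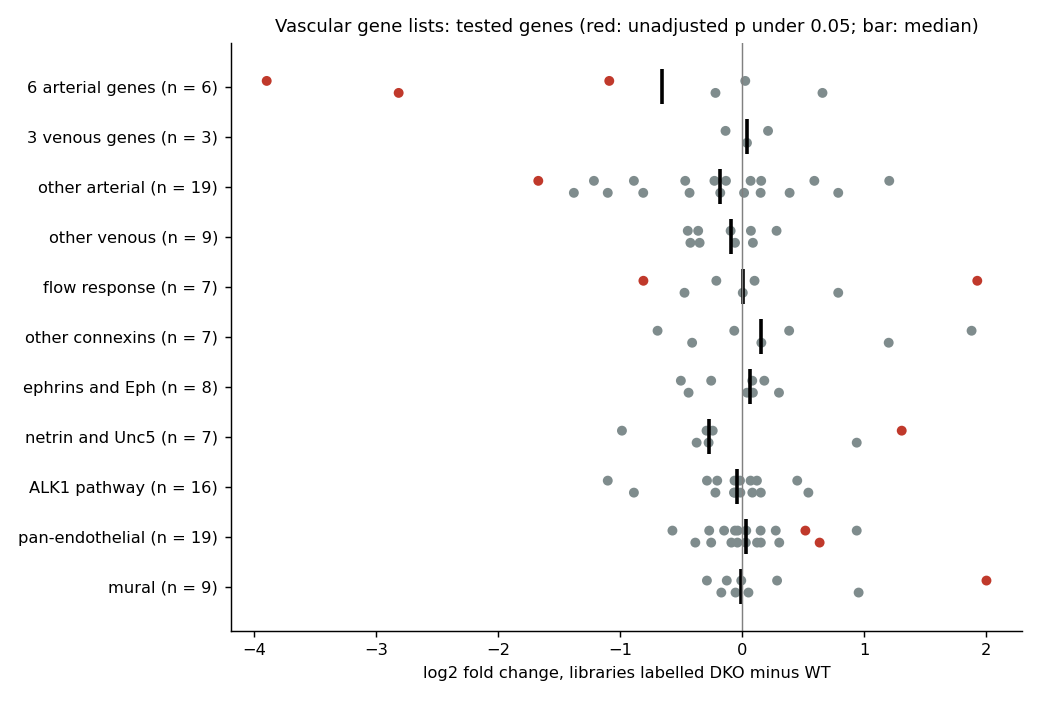
Log2 fold changes (horizontal axis, libraries labelled DKO minus WT) of the tested genes of each vascular list, in red where the unadjusted p was under 0.05, with a bar at the list median. Among these lists the 3 lowest values are Gja5 (-3.90), Gja4 (-2.82) and Mecom (-1.67), and the medians of the pan-endothelial, mural and venous lists lie between -0.095 and 0.039.

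Partners of the other members were tested in the same way. The 8 ephrin and Eph genes had 5 positive and 3 negative fold changes (median 0.061), with 0 at an unadjusted p under 0.05. Efnb1, another ephrin-B ligand gene, stood at -0.25 (SE 0.31), Ephb2 at -0.50 (SE 0.63) and Epha4 at -0.44 (SE 0.37), and these stood at -0.64, -1.40 and -0.76 without library 1 labelled DKO. Of the netrin and Unc5 genes 7 of 11 were tested, 2 positive and 5 negative (median -0.28). Ntn1, the ligand gene netrin 1, stood at 8.70, 4.82 and 6.36 CPM in DKO-labelled libraries 1, 2 and 3 and at 1.56, 1.85 and 4.69 CPM in WT, the groups not overlapping (log2 fold change 1.31, SE 0.47, adjusted p 0.501). The roundabout receptor gene Robo4 stood at 0.94 (SE 0.57) and Unc5c at -0.99 (SE 0.72), and without library 1 labelled DKO both passed, at 1.36 (adjusted p 0.0495) and -2.20 (adjusted p 0.0468). Across all 14335 genes tested in that setting, 433 were called higher and 201 lower. Cxcl12, the ligand gene for Cxcr4, stood at -0.46 (SE 0.20, adjusted p 0.569) and Ackr3, its scavenger receptor gene, at -0.18 (SE 0.28).

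The ALK1 pathway around Acvrl1 had 16 of 17 genes tested, 6 positive and 10 negative (median -0.040), with 0 at an unadjusted p under 0.05. The shared mediator gene Smad4 stood at -0.018 (SE 0.078), the target Id2 at 0.12 (SE 0.12), the Notch and BMP target Hey1 at -1.10 (SE 0.56) and the receptor gene Tgfbr2 at 0.45 (SE 0.29). Without library 1 labelled DKO, Tgfbr2 stood at 0.73 and passed (adjusted p 0.0369), where 433 of 14335 genes were called higher. The 5 genes that work with or resemble Nr2f2 had 2 positive and 3 negative fold changes (median -0.095), with 0 at an unadjusted p under 0.05, among them its paralog Nr2f1 at -0.35 (SE 0.53), Nr2f6 at 0.14 (SE 0.17) and the cofactor gene Zfpm2 at -0.42 (SE 0.24). Lists share members, so their counts are not independent. Nr2f1 and Smarca4 are also other venous genes, and Smarca4 gives the median of both lists. Hey1 and Tmem100 are in the other arterial and ALK1 lists, Edn1 in the other arterial and flow lists, and Robo4 in the netrin and pan-endothelial lists. Prox1 is in the other venous list and that of Nr2f2, and Ephb3 in the other venous and ephrin lists. The pan-endothelial list also holds Sox18 (other arterial), Emcn (other venous) and Eng (ALK1).

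Genes with the pattern most like each member were sought by the root mean square difference of log2 CPM over the 6 libraries, after centring each gene on its own mean, among genes with a mean of at least 5 CPM. Nearest to Gja4 were Abcb1b (0.385), Adgrg7 (0.400), Prkg2 (0.405), H2-T10 (0.434) and Triml2 (0.478). Nearest to Gja5 were the basement membrane collagen gene Col4a6 (0.694), the noncoding RNA Redrum (0.794), Serpina3h (0.819), Mybpc3 (0.973) and the kinase gene Prkg2 (1.04), which was near both connexin genes. Serpina3h has close paralogs, and its value is uncertain where their reads were shared. Nearest to Efnb2 were Acot11 (0.189), the ETS factor gene Ets1 (0.195), Slc13a4 (0.218), the Y-linked Kdm5d (0.228) and Npc1l1 (0.241). Ets1 stood at 48.6, 51.6 and 28.5 CPM in DKO-labelled libraries 1, 2 and 3 and at 71.9, 80.7 and 69.2 CPM in WT. Kdm5d stood at 6.56, 7.36 and 4.14 CPM in DKO-labelled libraries 1, 2 and 3 and at 12.3, 16.0 and 9.08 CPM in WT. Whether the share of male yolk sacs differed between the groups was not tested. Nearest to Nr2f2, which hardly varied, were Mcur1, Nrros, Pomt2, Gid4 and Tspan3 (0.031 to 0.033). Of the genes near the connexin genes, Col4a6 (log2 fold change -5.27, adjusted p 0.0112) and Prkg2 (-2.77, adjusted p 0.0225) passed the threshold of edgeR. All these genes were chosen for patterns like those of the members in the same 6 libraries. Fold changes like those of the members therefore follow from the choice and are no separate result.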

How the data were processed

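The deposited file held whole-number read counts per gene symbol, not normalized by the authors. The submitters' processing notes name the mm10 build, SAMtools and DESeq2 without a role. Aligner, counting program, annotation and strand handling are not stated in any source used, so reads of paralogs or overlapping genes may be split. The file headers name subset BAM files without saying what was subset.

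Groups were compared with the quasi-likelihood test of edgeR (version 4.0.16, R 4.3.3) after filterByExpr and TMM scaling, with no covariate. The SE was derived by dividing the size of the log2 fold change by the root of the F statistic. Adjustment (Benjamini-Hochberg, threshold 0.05) ran over all 14002 genes, and the procedure was also run on simulated counts. The recovery required of that run was at the spread of the WT libraries alone. It therefore does not show which changes edgeR could call at the spread of all 6 libraries. CPM used library totals, in which 1 count is 0.0176 to 0.0499 CPM, and intervals cover counting error only. CPM per kb used the union of GENCODE M21 exons. For ratios to pan-endothelial counts 0.5 was added to each member's count on the log scale, and 9 ratios and 1 sum were compared by exact permutation in scipy 1.17.1. Likeness used log2(CPM + 0.5). Coordinates and promoters are from RefSeq (GRCm38.p6).

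Alternatives were DESeq2 1.42.0, limma 3.58.1 (voom with library quality weights), other scaling and filters, a replicate block and each library left out. The text names the 9 genes, up to 4 genes of each other list with the smallest p and the 2 with the highest mean CPM, and the 5 genes most like each of 4 members. Tpbpa, Ascl2, Meox1, Pax6 and Tal1 are named outside that rule, after their values were seen. The result of 1 gene that the rule selects is not reported here. The members and lists were chosen with earlier results of these data known.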

Additional observations from a re-analysis of the deposited data

How the results depend on the processing

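The count of called genes depended on single libraries and on the tool. It was 5 with all libraries, 0 to 634 when each library was left out, the highest being without library 1 labelled DKO, and 8 without library 3. At 0 calls, without WT library 2, 630 genes had an unadjusted p under 0.05. It was 296 with DESeq2 (178 higher, 118 lower), 2661 with limma-voom and quality weights (1395 higher, 1266 lower), 8 with pan-endothelial scaling and 8 without a filter. Gja5, Gja4 and Efnb2 were lower in every setting that gave a value. They passed with DESeq2 at -3.93, -2.83 and -1.09 and with limma-voom at -3.16, -2.45 and -0.81 (adjusted p 0.0069, 0.0154 and 0.0238), where 9.04% of all genes were called lower. Gja4 also passed with pan-endothelial scaling at -2.74. Leaving out each library gave -4.73 to -3.43 for Gja5, -3.13 to -2.57 for Gja4 and -1.32 to -0.81 for Efnb2, and the 2 connexin genes passed without library 1 labelled DKO only. Cxcr4 gave no value with a filter of 1 CPM in 3 libraries.

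Signs of small differences turned. Leaving out each library gave -0.48 to 0.015 for Unc5b, -0.19 to 0.14 for Acvrl1, -0.064 to 0.12 for Ephb4, -0.25 to 0.64 for Aplnr and -0.22 to 0.15 for the pan-endothelial sum. Relative to pan-endothelial counts the ranges were -0.068 to 0.28 for Acvrl1, -0.28 to 0.080 for Nr2f2, -0.073 to 0.25 for Ephb4 and -0.35 to 0.50 for Aplnr, and relative to Pecam1 and Cdh5 alone Acvrl1 stood at -0.22, Ephb4 at -0.19 and Aplnr at -0.28. The cause was not tested. Relative to Pecam1 and Cdh5 alone, Gja5 stood at -4.80, Gja4 at -2.95, Efnb2 at -1.38, Unc5b at -0.51, Nr2f2 at -0.37 and Cxcr4 at 0.31.

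The replicate numbers were not treated as pairs. Same-numbered libraries deviated from their group means with correlations of -0.41, -0.23 and -0.20 across genes. These correlations constrain one another within groups of 3, so they cannot show whether such libraries shared a litter. With a replicate block 1 gene was called, and Gja5 stood at -4.32, Gja4 at -2.75, Efnb2 at -1.15 and Aplnr at -0.032. With 3 libraries a group, fold changes near 0 cannot be told from none.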

Other observations

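Other cell types of the yolk sac gave the following values, with 0 genes past edgeR's threshold in any of these lists. All 10 erythroid genes were negative (median -0.66), 0 of them at an unadjusted p under 0.05, and summed to 2711 to 10306 CPM in the libraries labelled DKO and to 8808 to 13695 CPM in WT. Visceral endoderm genes had 7 of 10 positive (median 0.068, 0 at an unadjusted p under 0.05), and genes of mesothelium and mesenchyme 7 of 9 (median 0.45), with Wt1 lower at an unadjusted p under 0.05, against 496 lower of all 14002 genes. Of 5 decidual genes 4 were tested, 3 of them positive (median 2.78), and all 4 had an unadjusted p under 0.05, against 1273 of all 14002 genes (777 higher, 496 lower). They were Esr1 (3.98), Prl8a2 (4.05) and Igfbp1 (1.58), which were positive, and Cryab (-0.32). DESeq2 called Esr1 alone, and whether its reads came from the CreERT transgene was not tested. Esr1 stood at 2.64, 1.97 and 1.97 CPM in DKO-labelled libraries 1, 2 and 3. The decidual marker Prl8a2 stood at 2.89, 0.256 and 32.8 CPM in DKO-labelled libraries 1, 2 and 3 and at 0.894, 0.925 and 0.399 CPM in WT.

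The spread of the arterial and venous genes among the libraries labelled DKO differed from gene to gene. Library 2 was the highest of the 3 for Gja4, Gja5, Efnb2, Acvrl1, Nr2f2 and Ephb4. Library 3 was the lowest of the 3 for Gja4, Efnb2, Unc5b, Ephb4 and Aplnr and the highest for Cxcr4, whereas library 1 was the lowest for Gja5, Cxcr4, Acvrl1 and Nr2f2 and the highest for Unc5b and Aplnr.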
